A study of Macaca fascicularis with 34 samples.

Results

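Alpha- and beta-tubulin are the subunits of microtubules, and primates carry several genes for each. The 9 tubulin genes described here are the alpha-tubulin genes TUBA1A, TUBA1B, TUBA1C, TUBA3C and TUBA3E and the beta-tubulin genes TUBB2A, TUBB2B, TUBB3 and TUBB6, taken by their human symbols from 28551 genes measured in single cells of cynomolgus monkeys (Macaca fascicularis). They are 9 of 17 alpha- and beta-tubulin genes in the table, and all 9 were measured. The genes were selected on their measured RPM by stage and their shares of tubulin RPM in these same cells, so levels and differences are given as a description, with no test.

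The cells came from a study of where the germ line of this monkey arises. Of 34 cells, 9 came from male gonads, 6 at embryonic day (E) 36, 1 at E47 and 2 at E55. The other 25 came from embryos, 3 at E13, 1 at E14, 11 at E16, 2 at E17 and 8 at E20. All were of the fascicularis subspecies, no treatment or genotype is given, and the labels name neither a cell type nor an animal. A group of cells therefore stands as 1 sample, SD is the spread between cells, and no difference was tested.

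Transcripts were read near their 3′ ends (SC3-seq, amplified cDNA), so a level in RPM (reads scaled to a common total per cell) does not scale with transcript length and levels of different genes can be set side by side. Depth ran from 472189 to 3556594 reads per cell. Depth was lowest at E13, with 472189 to 775709 reads. Clustering without any tubulin gene split the cells into 25 germ-cell-like cells and 9 mesoderm-like cells. The germ-cell-like cluster held 16 embryo cells and all 9 gonad cells, and 10 of 14 germ cell markers reached a median of 15 RPM in it, against 3 of 10 mesoderm markers. The mesoderm-like cluster was made of E20 cells 1 to 7 with E16 cell 8 and E17 cell 2, and 8 of 10 mesoderm markers reached that median in it, against 4 of 14 germ cell markers. E17 cell 2 moved to the germ-cell-like cluster when the cells were joined by Ward or complete linkage. At 15 RPM it had 7 of 10 mesoderm, 10 of 14 germ cell, 6 of 8 epiblast and 5 of 8 endoderm markers. E16 cell 8 had 9 of 10 mesoderm, 9 of 14 germ cell, 6 of 8 epiblast and 8 of 8 endoderm markers. Both cells were thus mixed by these lists. Codes in the sample titles run with stage. Code MS08 belongs to E20 cells 1 to 7, MS09 to all E16 cells and E20 cell 8, MS10 to E13, MS11 to E17 and all gonad cells, and MS13 to E14. Stages can be compared within 1 code only in MS09 and MS11.

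An alpha and a beta subunit pair in the cytosol after folding by the chaperonin CCT and a set of tubulin cofactors, and the dimers add to the ends of microtubules, which form the mitotic spindle, the tracks of transport and the axoneme of cilia and sperm tails. The genes differ mainly in where they are used. TUBA1B and TUBA1C are expressed in many tissues and TUBA1A is best known from developing neurons. TUBA3 genes are known from the testis in mouse and human. TUBB2A, TUBB2B and TUBB3 are known from the nervous system, where TUBB3 is the usual marker of neurons, and TUBB6 is a broadly expressed class with high levels in some muscle and mesenchymal cells. Cells lower their tubulin messages when free dimer accumulates, through TTC5 and SCAPER, which act on tubulin messages at the ribosome.

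TUBA1A, TUBA1B and TUBA1C are listed on chromosome 11, TUBA3C on chromosome 10 and TUBA3E on chromosome 12. TUBB2A and TUBB2B are on chromosome 4, TUBB3 on chromosome 20 and TUBB6 on chromosome 18. The row paired with human TUBB3 carries the monkey symbol TUBB4 in the table, and its gene ID is TUBB3 in RefSeq (assembly T2T-MFA8v1.1). By gene ID, 8 of the 9 genes were found in RefSeq, and TUBA1A was not. Copies within the TUBA1, TUBA3 and TUBB2 groups are close in sequence, so how reads were divided between TUBA3C and TUBA3E, or between TUBB2A and TUBB2B, is uncertain, and sums are given beside the single genes.

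TUBA1B was the main alpha-tubulin message of these cells and TUBB, a beta gene outside the 9, was the main beta message. TUBA1B led the alpha genes in 33 of 34 cells, and TUBA1C led in the other, E36 cell 6. TUBB led the beta genes in 33 cells, and TUBB2C, the gene now called TUBB4B, led in E13 cell 2. Together TUBA1B and TUBB made 70.0% ± 6.57 of summed alpha- and beta-tubulin RPM (SD, n = 34 cells), between 52.5% and 81.2%.

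Over all cells, TUBA1B averaged 2484 ± 1356 RPM (SD, n = 34 cells). TUBA1A averaged 619 ± 367 RPM and TUBA1C 521 ± 350 RPM. The other 6 genes were far lower. TUBB6 averaged 44.5 ± 102 RPM, TUBA3E 35.3 ± 67.3 RPM, TUBB2B 25.8 ± 44.4 RPM, TUBB2A 22.4 ± 29.6 RPM, TUBA3C 15.5 ± 36 RPM and TUBB3 10.9 ± 17.4 RPM. In each of these 6 the SD was larger than the mean, so their order is not resolved beyond the spread between cells. Together the 6 made 3.12% ± 2.47 of all tubulin RPM. Among the other tubulins TUBB4 (TUBB4A) and TUBAL3 had 0 reads in every cell, which allows up to 0.0468 RPM over the summed depth (3 reads, counting error only).

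**Figure D1:**
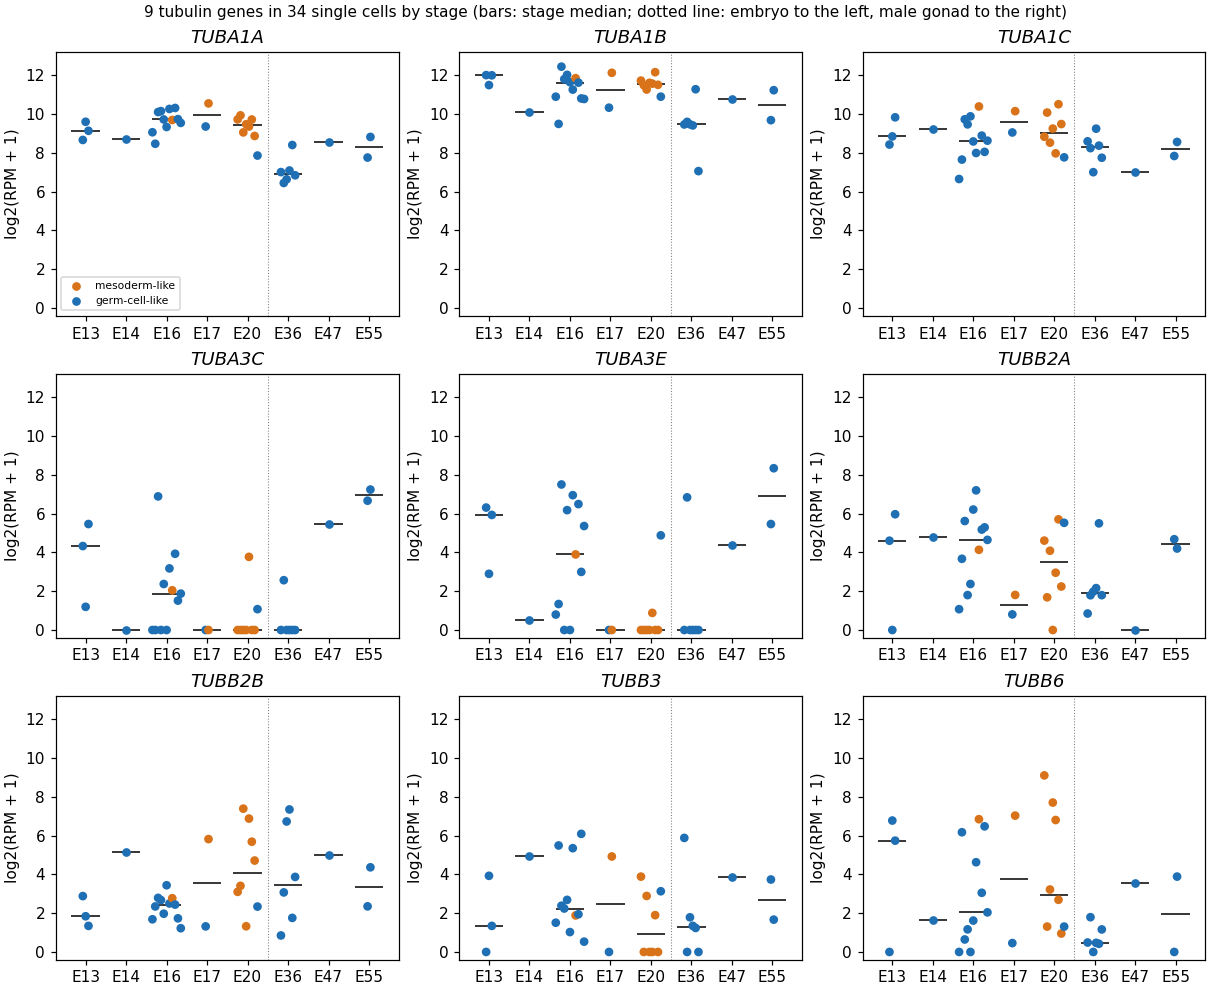
Level of each of the 9 tubulin genes as log2(RPM + 1) (y axis) by embryonic stage (x axis), 1 point per cell, orange for mesoderm-like and blue for germ-cell-like cells, with a bar at the stage median. The 3 TUBA1 genes lie high in every cell and the other 6 range from 0 upward; TUBA3C and TUBA3E are at 0 in most E20 and E36 cells and above 0 in all E13, E47 and E55 cells.

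The ratio of alpha to beta messages differed by stage. Alpha over beta RPM was 2.63 to 3.82 in the 3 E13 cells and 1.21 in the E14 cell. At E16 it had a lowest value of 1.47, a median of 2.25 and a highest of 3.08, at E17 it was 1.63 and 2.21, and at E20 it ran from 1.17 over a median of 1.37 to 1.61. At E36 it ran from 0.484 over a median of 1.36 to 1.53, at E47 it was 1.91, and at E55 1.45 and 1.79. The E13 cells stood above most cells and E36 cell 6 was the sole cell with more beta than alpha message. Gonad cells averaged 1.39 ± 0.411 (SD, n = 9) and embryo cells 2.09 ± 0.739 (SD, n = 25), and the groups overlapped. E20 cells averaged 1.41 ± 0.157 (SD, n = 8), against 2.35 ± 0.458 in E16 cells (SD, n = 11).

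Beta composition also differed at the youngest stage. TUBB2C made 38.9%, 45.5% and 42.0% of beta-tubulin RPM in the 3 E13 cells, and 2.94% to 36.6% in the cells of later stages. TUBA1C, by contrast, took its highest shares of alpha-tubulin RPM at E36, with 46.5% in E36 cell 6 and 42.6% in E36 cell 4.

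**Figure D2:**
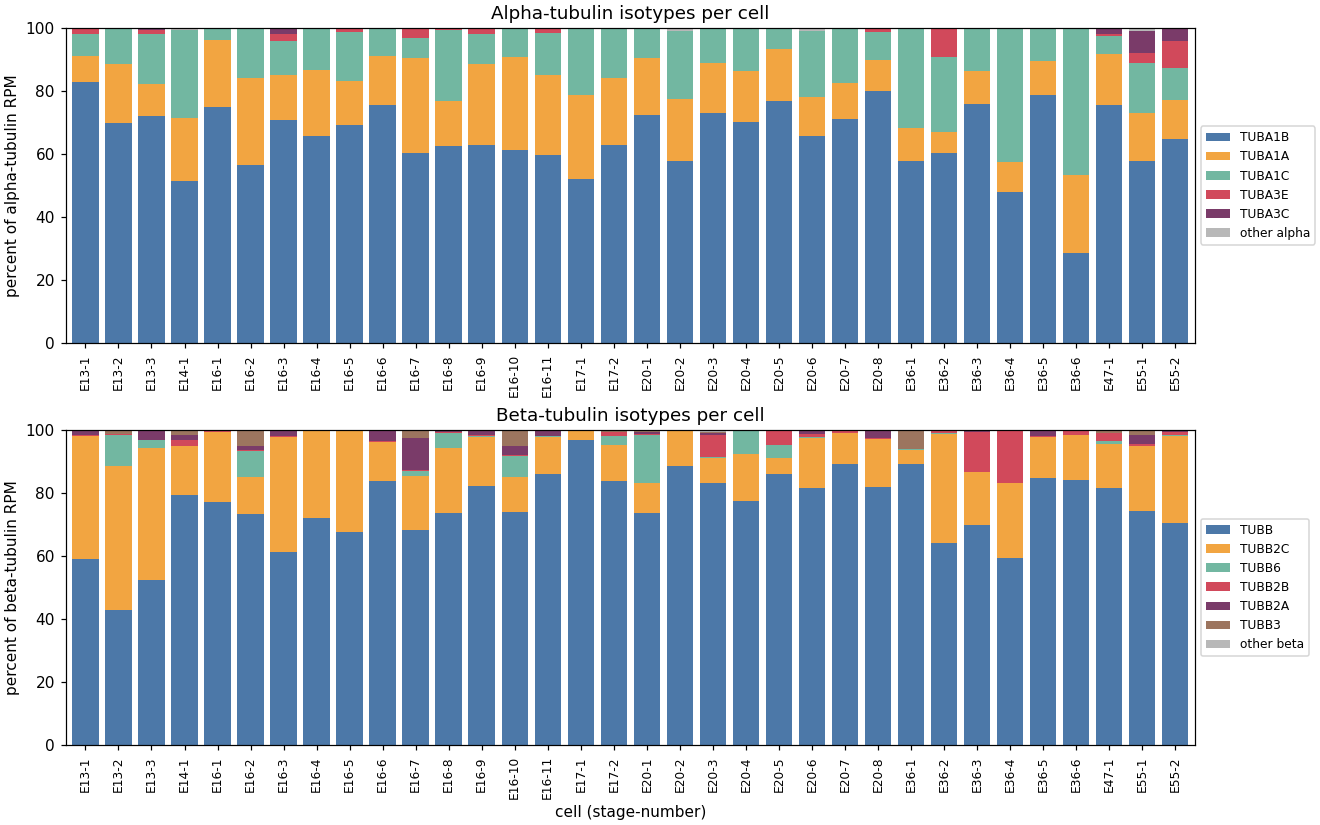
Share of each gene in the alpha-tubulin RPM (upper plot) and beta-tubulin RPM (lower plot) of each cell, in percent, with cells on the x axis by stage and number. TUBA1B and TUBB fill most of nearly all bars, TUBB2C is widest at E13, and the TUBA3 genes reach 10.1% and 12.8% of alpha in the 2 E55 cells.

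The sum of TUBA3C and TUBA3E, the testis-type alpha genes, reached 15 RPM in some germ-cell-like cells at every stage except E14 and E17. It was 0 in most mesoderm-like cells. At E20 and E36 only TUBA3E passed 15 RPM, with 28.4 RPM in E20 cell 8 and 113 RPM in E36 cell 2. The sum was 97.4, 7.73 and 103 RPM in the 3 E13 cells and 0.433 RPM in the E14 cell, which is 1 read. At E16 it had a lowest value of 0, a median of 17 and a highest of 297 RPM in E16 cell 3. Both E17 cells had 0 reads, which allows up to 0.548 RPM over their summed depth. The E13 and E16 ranges overlapped, and E14 and E17 lay at the bottom of the E16 range.

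Of the 8 E20 cells, 6 had no TUBA3 read, E20 cell 5 had 13.5 RPM and E20 cell 8 had 29.5 RPM. E20 cell 8 is the sole germ-cell-like cell of that stage. Of the 6 E36 gonad cells, 5 had no TUBA3 read and E36 cell 2 had 118 RPM from 96 reads. The limits that 0 reads allow in those 5 cells run from 1.02 to 3.71 RPM. The E47 cell had 62.6 RPM, and the E55 cells had 143 and 472 RPM. Both E55 cells lay above every E36 cell and E55 cell 2 had the highest value of the series. By stage mean the order was E55 (308 RPM), E13 (69.4), E47 (62.6), E16 (61.6), E36 (19.7), E20 (5.37), E14 (0.433) and E17 (0). The E13 and E16 ranges overlapped, and E47, which is 1 cell, lay inside both. The E36 mean rests on E36 cell 2 and the E20 mean on E20 cells 5 and 8, so their order is not resolved.

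As part of all tubulin message the TUBA3 genes stayed small. Their share of alpha- and beta-tubulin RPM was 1.54%, 0.149% and 1.32% in the E13 cells. It peaked at 2.83% at E16. It was 5.59% in E36 cell 2, 1.76% in the E47 cell, and 6.47% and 7.57% in the E55 cells. Over alpha tubulin alone these gonad shares were 9.24%, 2.69%, 10.1% and 12.8%. Over the summed reads of the 2 E55 cells, TUBA3 held 792 of 10782 tubulin reads, 7.35% (exact binomial 95% interval 6.86% to 7.85%). The reads carry no molecular identifiers, so intervals here cover counting error only.

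The 2 genes were mostly read together. Both had reads in 16 of 19 cells with any TUBA3 read, and TUBA3E alone had reads in 3. Both reached 15 RPM in 6 cells, TUBA3E alone did so in 6, TUBA3C alone in 0, and neither in 22. TUBA3E had 2284 reads over all cells and TUBA3C 920. TUBA3E was the higher in 16 of 19 cells with any TUBA3 read, and TUBA3C in 3 cells, E20 cell 5, the E47 cell and E55 cell 1. In E55 cell 1 TUBA3C had 100.4 RPM and TUBA3E 43.0 RPM, whereas in E55 cell 2 TUBA3C had 149.9 RPM and TUBA3E 322 RPM. The order of the copies thus differed between the 2 cells of E55. Over the 34 cells the Pearson correlation of their log2(RPM + 1) was 0.84, a description over cells that share libraries and depth, and over genes that may share reads.

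**Figure D3:**
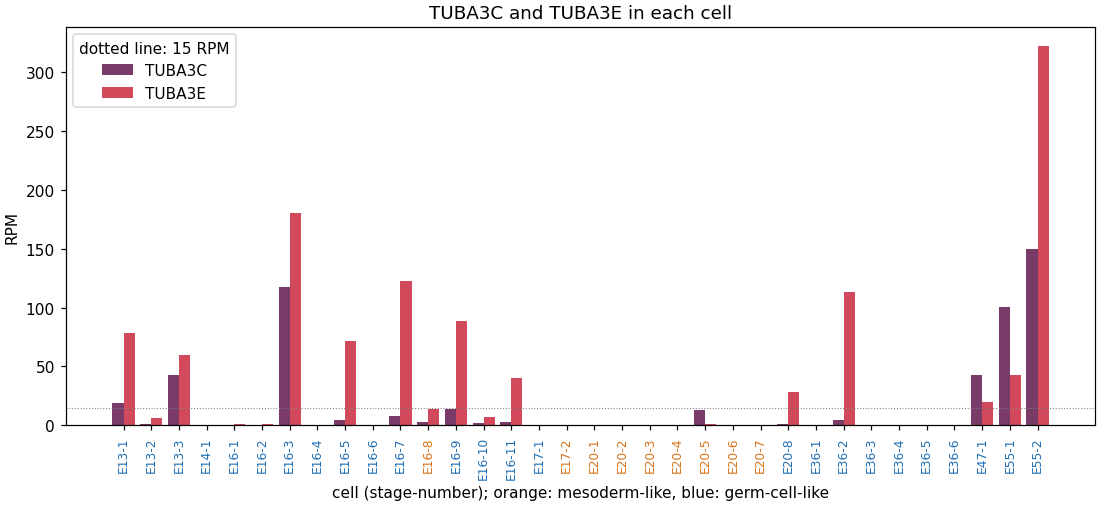
TUBA3C (purple bars) and TUBA3E (red bars) in RPM (y axis) in each cell (x axis, labels orange for mesoderm-like and blue for germ-cell-like cells), with a dotted line at 15 RPM. TUBA3E is the taller bar in most cells, TUBA3C is taller in E20 cell 5, E47 cell 1 and E55 cell 1, and no mesoderm-like cell reaches 15 RPM for either gene.

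Some gonad cells also held transcripts of gonadal somatic cells. Of 18 markers of these cells, 14 reached 15 RPM in the E47 cell, 8 in E55 cell 2 and 7 in E36 cell 5, and 2 to 4 in the other 6 gonad cells. Their summed level was 22259 RPM in the E47 cell, 734 RPM in E55 cell 2 and 1103 RPM in E36 cell 5, and 127 to 494 RPM in the other 6. TUBA3 was read in the E47 cell and in E55 cell 2, and also in E55 cell 1 and E36 cell 2, which had 3 and 2 of these markers at 15 RPM. E36 cell 5 had no TUBA3 read. The part of these markers in the TUBA3 levels was not tested.

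Gonad cells had less tubulin message than embryo cells. All 9 gonad cells carry code MS11, which only the E17 cells share among embryo cells. Beyond those E17 cells, organ, stage and code change together and cannot be told apart. Summed alpha- and beta-tubulin averaged 3016 ± 1680 RPM in gonad cells (SD, n = 9), against 6637 ± 2466 RPM in embryo cells (SD, n = 25). The difference of mean log2(RPM + 1) was -1.20 and by means gonad cells were 2.2-fold lower. All 9 gonad cells lay below the embryo median, and 3 lay below every embryo cell. Of the 9 genes, 0 were at least 2-fold higher and 4 at least 2-fold lower in gonad cells (a difference of mean log2(RPM + 1) of 1 or more). Over the 15245 genes that averaged 1 RPM or more in either group, 7.62% were that much higher and 15.1% that much lower, 22.7% in either direction. The median difference was -0.88 over the 9 genes and -0.17 over all measured genes.

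By mean RPM the gap was widest for TUBA1B, then for TUBB, which averaged 948 ± 509 RPM in gonad cells, against 1747 ± 885 RPM in embryo cells (log2 difference -0.85), and then for TUBA1A. TUBA1A ran from 86.2 over a median of 135 to 450.5 RPM in gonad cells, against 231 over 745 to 1494 RPM in embryo cells. Of the 9 gonad cells, 6 lay below every embryo cell. TUBA1A averaged 216 ± 138 RPM in gonad cells, against 763 ± 310 RPM in embryo cells, 3.53-fold lower (log2 difference -1.95). TUBA1B ran from 132 over a median of 772 to 2480.5 RPM in gonad cells, against 718 over 3030.2 to 5560 RPM in embryo cells. Of the 9 gonad cells, 4 lay below every embryo cell and all 9 below the embryo median. Its means were 1161 ± 836 RPM in gonad cells, against 2960.0 ± 1185 RPM in embryo cells, 2.55-fold lower (log2 difference -1.62). For TUBA1C the log2 difference was -0.88, under the 2-fold line, and -1.03 without E36 cell 4.

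Among the lower members, TUBB6 was low in the gonad. It averaged 3.27 ± 5.24 RPM in gonad cells, with 0 of 9 at 15 RPM, against 59.4 ± 116 RPM in embryo cells, with 10 of 25 at 15 RPM (log2 difference -2.18). The embryo mean rests on few cells, since the embryo median was 5.45 RPM. Mesoderm-like cells averaged 125 ± 175 RPM of TUBB6 and germ-cell-like embryo cells 22.6 ± 36.2 RPM. Of the 9 gonad cells, 3 lay above the median of germ-cell-like embryo cells, so low TUBB6 was not particular to the gonad. TUBB2A averaged 10.9 ± 15.1 RPM in gonad cells, against 26.5 ± 32.6 RPM in embryo cells (log2 difference -1.13). That difference fell under the 2-fold line without the E47 cell (-0.81), without E36 cell 1 (-0.92) or without E16 cell 7 (-0.98). Within code MS11, which holds the 9 gonad cells and only the 2 E17 cells, TUBB2A was higher in gonad cells (log2 difference 1.24), and so were TUBA3C (2.44) and TUBA3E (2.78), with both E17 cells at 0. These 3 were the genes at least 2-fold higher there.

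TUBB2B, TUBB3, TUBA3C and TUBA3E differed by less than 2-fold on the mean of log2 values over all cells. TUBB2B averaged 38.3 ± 56.3 RPM in gonad cells, against 21.2 ± 39.7 RPM in embryo cells, with 161 and 105 RPM in E36 cells 4 and 3. Its log2 difference was 0.78, and it passed 2-fold without E36 cell 1 (1.16) or E36 cell 5 (1.05). TUBB3 averaged 10.1 ± 18.6 RPM in gonad cells, against 11.1 ± 17.4 RPM in embryo cells, and its one high gonad cell was E36 cell 1 with 57.8 RPM. TUBA3C averaged 33.1 ± 55.4 RPM in gonad cells, against 9.14 ± 24.4 RPM in embryo cells, a log2 difference of 0.93 that ranged from 0.33 to 1.23 as single cells were left out and was 0.034 without the 3 somatic-rich gonad cells. TUBA3E averaged 55.4 ± 107 RPM in gonad cells, against 28.0 ± 47.1 RPM in embryo cells, a log2 difference of 0.26. That sign was the other way by medians (-0.88), without the 3 somatic-rich gonad cells (-0.47), and without E36 cell 2 (-0.24), E55 cell 1 (-0.071) or E55 cell 2 (-0.43). The TUBA3 share of tubulin RPM averaged 2.38% ± 3.21 in gonad cells and 0.516% ± 0.803 in embryo cells, 1.86 points higher. The medians ran the other way, with a difference of medians of -0.072 points, and 5 of 9 gonad cells had no read.

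Against germ-cell-like embryo cells alone the gonad cells showed much the same list. Of the 9 genes, 1 was at least 2-fold higher and 4 at least 2-fold lower, where 9.51% and 14% of 14736 measured genes were (23.5% in either direction). This comparison and the one above share the 9 gonad cells and 16 of the embryo cells. The log2 difference was -1.87 for TUBA1A, -1.45 for TUBA1B, -1.5 for TUBB2A and -1.3 for TUBB6. TUBB2B was the higher gene. It averaged 38.3 ± 56.3 RPM in gonad cells, against 5.83 ± 7.89 RPM in germ-cell-like embryo cells (log2 difference 1.57). Gonad cells above 15 RPM of TUBB2B numbered 4 of 9, and germ-cell-like embryo cells 1 of 16.

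For TUBA3 the direction in this comparison depended on the measure. The mean of the sum was 88.5 ± 155 RPM in gonad cells and 56.1 ± 79.3 RPM in germ-cell-like embryo cells, 1.58-fold higher, whereas the difference of mean log2(RPM + 1) was -0.60. Reads were present in 4 of 9 gonad cells and 13 of 16 germ-cell-like embryo cells. A smaller share of gonad cells held TUBA3, and 1 of those that did, E55 cell 2, lay above every embryo cell. For TUBA3E alone the log2 difference was -0.85, and leaving out any of 10 single cells took it past 2-fold, down to -1.55 without E55 cell 2. Leaving out the somatic-rich E36 cell 5, E47 cell and E55 cell 2, a choice made after seeing the data, the TUBA3 share was 1.23 points higher in gonad cells, where it was 1.60 points higher with them. It was 0.95 points higher without E55 cell 2 alone, and the difference of medians was -0.44 points. TUBA3E was then also at least 2-fold lower, at -1.58, and TUBA3C was at -0.45 where it was 0.45 with them.

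**Figure D4:**
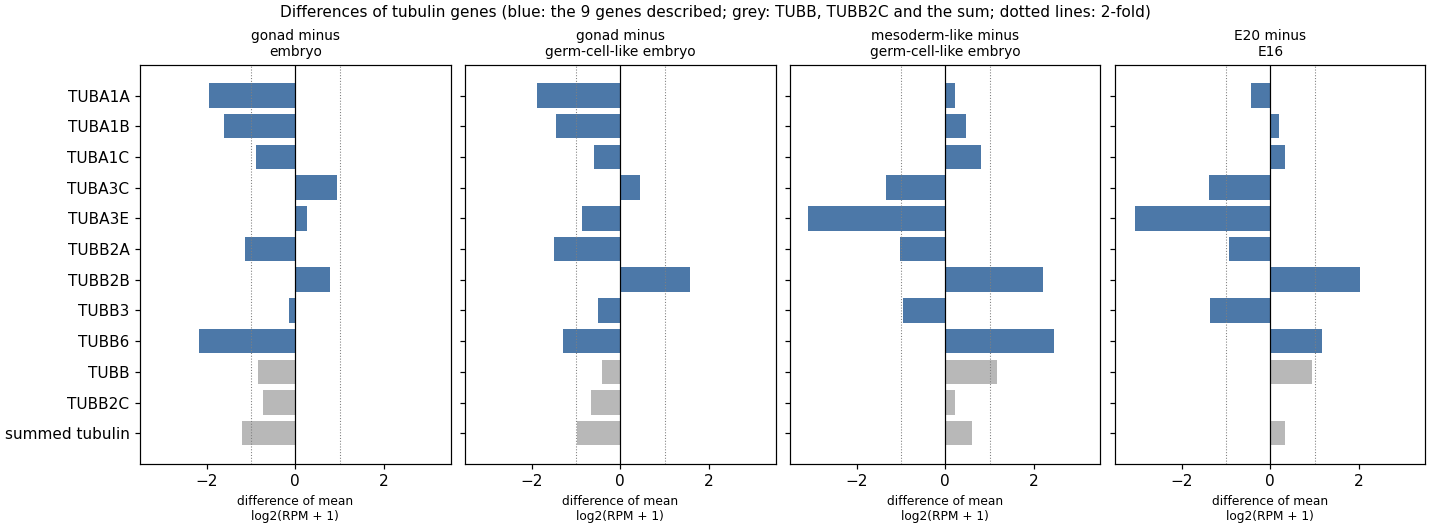
Difference of mean log2(RPM + 1) (x axis) for the 9 genes (blue), for TUBB and TUBB2C and for summed alpha- and beta-tubulin (grey), in 4 comparisons, with dotted lines at 2-fold in either direction. TUBA1A, TUBA1B, TUBB2A and TUBB6 lie left of the lower line in both gonad comparisons, and TUBA3E lies farthest left in the mesoderm-like and E20 comparisons.

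Mesoderm-like cells had more tubulin message than germ-cell-like embryo cells, chiefly of TUBB. Summed tubulin averaged 8279.8 ± 1956 RPM in mesoderm-like cells (SD, n = 9) and 5714 ± 2272 RPM in germ-cell-like embryo cells (SD, n = 16), a log2 difference of 0.61. TUBB averaged 2656 ± 682 RPM in mesoderm-like cells and 1237 ± 480 RPM in germ-cell-like embryo cells, and 8 of 9 mesoderm-like cells lay above every germ-cell-like embryo cell. Of the 9 genes, 2 were at least 2-fold higher and 3 at least 2-fold lower. Over 15139 measured genes 20.3% were that much higher and 11% that much lower, 31.4% in either direction. The median difference was 0.22 over the 9 genes and 0.16 over all measured genes.

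The higher genes were TUBB2B and TUBB6. TUBB2B ran from 1.5 over a median of 25.2 to 166 RPM in mesoderm-like cells, against 1.33 over 4.07 to 34.2 RPM in germ-cell-like embryo cells. TUBB2B passed every germ-cell-like embryo cell in 4 of 9 mesoderm-like cells, and its log2 difference was 2.21. TUBB6 ran from 0.933 over a median of 110 to 547 RPM in mesoderm-like cells, against 0 over 2.12 to 108 RPM in germ-cell-like embryo cells. Of the 9 mesoderm-like cells, 5 lay above every germ-cell-like embryo cell for TUBB6, with a log2 difference of 2.46. Mesoderm-like cells were thus split for both genes. The cells high in TUBB2B were E20 cells 3, 5 and 6 and E17 cell 2, and those high in TUBB6 were E20 cells 1, 4 and 5, E16 cell 8 and E17 cell 2. Of 9 neuron markers, 0 reached a median of 15 RPM in either cluster. Of the cells high in TUBB2B, E20 cells 3 and 6 and E17 cell 2 had 1 marker at 15 RPM and E20 cell 5 had 0. Among cells not high in TUBB2B, E20 cell 1, E16 cell 8 and E13 cell 3 each had 1 and the E14 cell had 2. ELAVL4, an RNA-binding protein of neurons, averaged 8.76 ± 13.5 RPM in mesoderm-like cells and 1.53 ± 3.13 RPM in germ-cell-like embryo cells (log2 difference 1.08). It was the 1 of 5 measured neuron markers at least 2-fold higher, beside 20.3% of all measured genes, and 0 were lower. Their median was 0.19, with STMN2 at 0.78, SNAP25 at -0.17 and ELAVL3 at -0.70. The part of these markers in the TUBB2B levels was not tested.

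The lower genes were TUBA3E, TUBA3C and TUBB2A. TUBA3E averaged 1.63 ± 4.6 RPM in mesoderm-like cells, with reads in 2 of 9, and 42.9 ± 53.7 RPM in germ-cell-like embryo cells, with reads in 13 of 16 (log2 difference -3.10). TUBA3C averaged 1.75 ± 4.21 RPM in mesoderm-like cells and 13.3 ± 29.9 RPM in germ-cell-like embryo cells (log2 difference -1.34). All 9 mesoderm-like cells lay below the germ-cell-like embryo median of the TUBA3 sum. The TUBA3 share was 0.0458% ± 0.0908 in mesoderm-like cells and 0.781% ± 0.905 in germ-cell-like embryo cells, 0.74 points lower in mesoderm-like cells. The mesoderm-like cells with TUBA3 reads were E16 cell 8, with 9 of 14 germ cell markers at 15 RPM, and E20 cell 5, with 8. Among the other 7, 2 to 6 of these markers reached 15 RPM in 6 cells, and 10 did in E17 cell 2, which had no TUBA3 read. TUBB2A had a log2 difference of -1.02, and 14 of the 25 cells, left out singly, each took it under the 2-fold line, to -0.64 without E20 cell 4. TUBB3 was under that line at -0.94 and passed it when any of 9 single cells was left out, to -1.34 without E17 cell 2. With clusters drawn by Ward linkage, which moves E17 cell 2, TUBB2A was at -0.74 and TUBB3 at -1.48.

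E20 cells against E16 cells gave nearly the same contrast, since 7 of 8 E20 cells were mesoderm-like and 10 of 11 E16 cells germ-cell-like. Of the 9 genes, 2 were at least 2-fold higher at E20 and 3 at least 2-fold lower, beside 13.9% and 18.9% of 14998 measured genes (32.8% in either direction). TUBB2B was 10.7-fold higher at E20 by means, 47.6 ± 61.4 RPM (SD, n = 8) against 4.44 ± 2.36 RPM at E16 (SD, n = 11), with a log2 difference of 2.03. TUBB6 had a log2 difference of 1.17, which fell to 0.46 without E20 cell 1 and under the 2-fold line without E20 cell 4 (0.66) or 5 (0.79) or any of E16 cells 1, 3, 4 and 5. The lower genes were TUBA3E (-3.05), TUBA3C (-1.38) and TUBB3 (-1.35). TUBA3C was under the 2-fold line without E16 cell 3 (-0.89). TUBB2A, at -0.94, passed that line when any of 8 single cells was left out, to -1.28 without E20 cell 6. Within code MS09, which holds the 11 E16 cells and E20 cell 8 alone, 6 of the 9 genes ran the other way. They were TUBA3E at 1.11, TUBB3 at 0.30, TUBB6 at -1.66, TUBB2A at 1.23, TUBA1C at -0.95 and TUBA1B at -0.43. Code and cluster change together between E16 and E20 and cannot be told apart.

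Summed tubulin moved with genes of dividing cells. Across the 34 cells it had a Pearson correlation of 0.83 with the mean log2(RPM + 1) of 14 genes of dividing cells, and 0.84 across the 25 germ-cell-like cells. With depth the correlation was 0.10, with the number of genes at 15 RPM 0.42 and with the mean of 8 CCT chaperonin genes -0.054. These are descriptions over cells that share libraries and normalisation to a common total. In gonad cells 11 of those 14 genes were at least 2-fold lower and 0 higher than in embryo cells, with a median of -2.14. Over all measured genes 15.1% were that much lower and 7.62% higher. MKI67, which marks cycling cells, averaged 37.7 ± 74.3 RPM in gonad cells, against 146 ± 118 RPM in embryo cells, and CENPF, a kinetochore protein, had a log2 difference of only -0.081. The 2 gonad cells with all 14 genes at 15 RPM, E36 cell 5 and E55 cell 2, had the highest summed tubulin of the gonad cells, 5288 and 6242 RPM. Both are also rich in somatic transcripts, and without them and the E47 cell the gonad difference in summed tubulin was -1.64. In mesoderm-like cells 5 of the 14 genes were at least 2-fold higher than in germ-cell-like embryo cells and 0 lower, beside 20.3% and 11% of all measured genes. The part of cell division in the tubulin differences was not tested.

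**Figure D5:**
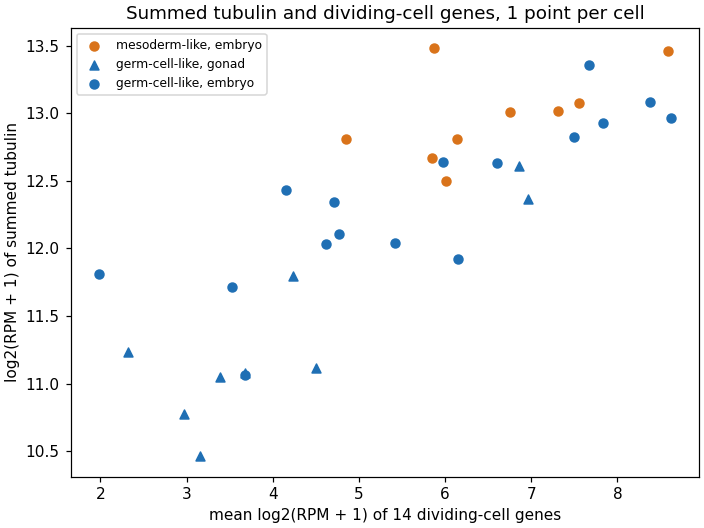
Summed alpha- and beta-tubulin as log2(RPM + 1) (y axis) against the mean log2(RPM + 1) of 14 genes of dividing cells (x axis), 1 point per cell, with triangles for gonad and circles for embryo cells, orange for mesoderm-like and blue for germ-cell-like cells. The points climb together (r = 0.83, n = 34 cells), most gonad cells lie at the lower left, and mesoderm-like cells lie in the upper part of the range.

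The genes most like each member over the 34 cells differed between the alpha genes. For TUBA1B, the member with the highest mean, they were MKI67 (r = 0.78), TRIOBP (0.77) and TACC3 (0.74). TACC3 is a protein of the mitotic spindle. For TUBA3E they were PLEKHG4 (0.63), ATP5L (0.61) and UHMK1 (0.58), and for TUBA3C PPM1K (0.59), NFAT5 (0.59) and RASSF2 (0.58). TUBA1A and TUBA1B themselves had a correlation of 0.80 with each other, and TUBA3E and TUBB2B one of -0.32. The TUBA3 sum had a correlation of 0.45 with the mean of 14 germ cell markers over all 34 cells and of 0.15 within the 25 germ-cell-like cells.

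Few genes of the machinery that folds tubulin differed by 2-fold in the gonad. Of 20 measured genes of the chaperonin, prefoldin and tubulin cofactors, 1 was at least 2-fold higher and 1 lower in gonad cells than in embryo cells. Over all measured genes the shares were 7.62% and 15.1%. The median of the 20 was 0.061. TBCD, a cofactor that binds beta-tubulin, had 8.39 ± 5.96 RPM in gonad cells, against 4.59 ± 5.45 RPM in embryo cells (log2 difference 1.18). TBCC, which completes dimer assembly, had 13 ± 17.7 RPM in gonad cells, against 40.3 ± 42.7 RPM in embryo cells (-1.73). In mesoderm-like against germ-cell-like embryo cells 0 of 20 were higher and 1 lower, beside 20.3% and 11% of all measured genes. The lower was PFDN2 (-2.72), a prefoldin subunit. PFDN2 and TBCE were also the 2 lower at E20 than at E16, at -2.71 and -2.61, where 18.9% of all measured genes were lower.

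Of 13 measured tubulin-modifying enzymes, 2 were at least 2-fold higher and 4 lower in gonad cells than in embryo cells, beside 22.7% of all measured genes in either direction. TTL, which puts the terminal tyrosine back on alpha-tubulin, averaged 112 ± 105 RPM in gonad cells, against 41.7 ± 53.5 RPM in embryo cells (log2 difference 2.34). VASH1, which removes it, averaged 45.6 ± 38.7 RPM in gonad cells, against 13.8 ± 25.9 RPM in embryo cells (2.68). VASH2, a relative of VASH1 that also removes it, ran the other way, with 0.460 ± 0.835 RPM in gonad cells, against 12.2 ± 25.1 RPM in embryo cells (-1.14). ATAT1, which acetylates alpha-tubulin, averaged 8.23 ± 10.6 RPM in gonad cells, against 47.2 ± 48.5 RPM in embryo cells (-2.62). In mesoderm-like against germ-cell-like embryo cells 3 of 13 were at least 2-fold higher and 2 lower, near the 20.3% and 11% of all measured genes. HDAC6, a deacetylase of tubulin, was among the lower (-2.06) and VASH2 among the higher (3.26).

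Severing and depolymerising factors split. In gonad cells 3 of 9 were at least 2-fold higher and 3 lower than in embryo cells, beside 7.62% and 15.1% of all measured genes. KIF2A, a kinesin that takes microtubule ends apart, had a log2 difference of 1.49. Its mean RPM was nearly equal, 89.9 ± 51.9 in gonad cells and 82.5 ± 112 in embryo cells. KATNA1, the katanin cutter, was barely past the 2-fold line at 1.01. By means it was under that line, at 67.9 ± 49.0 against 47.3 ± 47.1 RPM. KIF2C, the mitotic relative of KIF2A, was at -2.54, with 50.3 ± 57.8 against 141 ± 109 RPM. In mesoderm-like against germ-cell-like embryo cells 3 of 9 were higher and 1 lower, beside 20.3% and 11% of all measured genes. KIF2A averaged 162 ± 150 RPM in mesoderm-like cells, against 37.9 ± 46.0 RPM in germ-cell-like embryo cells (3.30). Of 21 microtubule-associated proteins and stathmins, 1 was at least 2-fold higher and 5 lower in gonad cells than in embryo cells, beside 7.62% and 15.1% of all measured genes. The higher was MAP1B, which binds microtubules in growing neurites, with 133 ± 125 RPM in gonad cells, against 79.5 ± 87.4 RPM in embryo cells (1.24). TPX2, a spindle assembly factor, was lowest at -2.08. In mesoderm-like against germ-cell-like embryo cells 4 of 22 were higher and 2 lower, near the 20.3% and 11% of all measured genes. MAP7D1 was at 2.51 and CKAP5, a microtubule polymerase, at -1.78.

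None of 8 measured genes of the gamma-tubulin ring complex, which seeds microtubules, was at least 2-fold higher or lower in gonad cells than in embryo cells. Of all measured genes in that comparison, 22.7% were. TTC5 and SCAPER, the genes of tubulin message control, had log2 differences of -0.19 and -0.998 there, both inside 2-fold. SCAPER was at -1.48 in gonad against germ-cell-like embryo cells and at -1.34 in mesoderm-like against germ-cell-like embryo cells. At E20 against E16, SCAPER was at -3.01 and TTC5 at -1.37. Genes of the later sperm flagellum were almost silent, and only 5 of 15 passed a mean of 1 RPM in gonad or embryo cells. Of these, 0 differed by 2-fold, beside 22.7% of all measured genes. ODF2, a protein of outer dense fibres and centrioles, averaged 21.9 ± 23.0 RPM in gonad cells, against 20.5 ± 25.5 RPM in embryo cells.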

How the data were processed

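Per the labels' protocols, cDNA of single cells was amplified and SOLiD libraries were made, and the series calls the method SC3-seq. The submitters' processing notes name cutadapt 1.3, TopHat 1.4.1 and Cufflinks 2.2.0. Genome build, annotation and counting settings are not stated there. The authors deposited 1 table of log2 values, log2(RPM + 1). They were turned back to RPM. Within a cell, 99.8% to 100.0% of values were a whole number of reads within 0.1 read, which gave the depth of each cell, 472189 to 3556594 reads. All 578 alpha- and beta-tubulin values were whole within that tolerance. Of 561 pairs of cells 0 had identical columns.

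Groups were compared by subtracting means of log2(RPM + 1), and 2-fold means a difference of 1. Where some cells are near 0, this can be smaller or larger than the ratio of mean RPM. For KIF2A in gonad against embryo cells it was 1.49 at nearly equal mean RPM. For TUBB2B in gonad against germ-cell-like embryo cells it was 1.57, where the means differed 6.57-fold. Genes needed a mean of 1 RPM in either group. No test was run: samples are single cells, and the labels do not say from which animals. Clusters came from average linkage on correlations over 2000 variable genes averaging 20 RPM or more, tubulins left out, and were named from marker lists. Summed reads have exact Poisson or binomial intervals at 95%. Alternatives were other pseudocounts, filters, statistics, size factors, thinned reads, other denominators, title codes and leaving out each cell. The 9 genes and all lists were chosen with earlier results of these data known. All 9 genes and any other alpha- or beta-tubulin could be named. From other lists the 2 highest and 2 lowest could be named, and for likeness the 3 genes of highest Pearson correlation averaging 20 RPM or more. Single cells were picked for mention after their values were seen. Work used Python 3.11.15, numpy 2.4.6, pandas 2.3.3, scipy 1.17.1 and matplotlib 3.10.9.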

Additional observations from a re-analysis of the deposited data

Results flagged for a closer look

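Single cells were screened with Dixon's ratio in 42 sets, each drawn from E20, E36, gonad or mesoderm-like cells (6 to 9 cells). The distance from the most extreme cell to the next was divided by the full range and set against the 95% critical value. Levels were on the log2(RPM + 1) scale. A cell stood apart in 10 sets. Chance alone flags about 1 in 20 only in independent sets of normally spread values. The 10 of 42 can therefore not be read against that rate. Many of these sets hold mostly zeros, and a single cell with reads among zeros is flagged at any level. Sets of the same cells are not independent. TUBA3E and the TUBA3 share flagged the same cell among E20 cells and among E36 cells.

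Among E20 cells, TUBA3C stood apart in E20 cell 5 at 12.6 RPM. TUBA3E did so in E20 cell 8 at 28.4 RPM, as did its TUBA3 share of tubulin RPM, 0.669%. Among E36 cells, E36 cell 2 stood apart for TUBA3E at 113 RPM and for the TUBA3 share at 5.59%, with every other E36 cell at 0. E36 cell 5 stood apart for TUBA1A at 338 RPM and for TUBB2A at 44.1 RPM. TUBB3 stood apart in E36 cell 1 at 57.8 RPM. Among the 9 gonad cells, TUBA1B stood apart on the low side in E36 cell 6 at 132 RPM. Among the 9 mesoderm-like cells, TUBA3E stood apart in E16 cell 8 at 13.9 RPM. E20 cell 8 is the germ-cell-like cell of its stage and carries another title code than E20 cells 1 to 7. E36 cell 5 is 1 of 3 gonad cells rich in gonadal somatic transcripts and had all 14 genes of dividing cells at 15 RPM. The part of these in the values was not tested.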

How the results depend on the processing

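Of 354 values under settings other than leaving out a cell, 16 had the other sign, as did 8 values with 1 cell left out. These were mostly differences under 2-fold. The count of the 9 genes at least 2-fold higher in gonad than in embryo cells (0) became 1 with ratios of mean RPM, medians or thinned reads and 3 within code MS11. The TUBA3 share became -0.072 points by medians, and TUBB2A 1.24 within MS11. Against germ-cell-like embryo cells the higher count became 2 with ratios of means, the lower count 2 with a pseudocount of 10 RPM, and the TUBA3 share -0.44 points by medians. For mesoderm-like against germ-cell-like embryo cells the lower count became 1 with that pseudocount. The TUBA3 share there became -0.44 points by medians, -1.02 over alpha tubulin alone, -1.01 over the 9 genes alone and -0.94 over summed RPM. For E20 against E16 the higher count became 1 with the pseudocount, medians or thinned reads, and the lower count 1 with the pseudocount or thinned reads. The TUBA3 share became -0.21 points by medians and -0.15 within code MS09. Also within MS09, where E20 is 1 cell, summed tubulin became -0.36 (0.33 overall), TUBA3E 1.11, TUBB3 0.30, TUBB6 -1.66, TUBB2A 1.23, TUBA1C -0.95 and TUBA1B -0.43. The cause of these moves was not tested. Leaving out 1 cell at a time, the higher count ran from 0 to 2 and the lower from 3 to 5 for gonad against embryo, with summed tubulin from -1.35 to -1.09 and the TUBA3 share from 1.21 to 2.16 points. Against germ-cell-like embryo cells these were 1 to 1, 4 to 5, -1.13 to -0.87 and 0.95 to 1.89 points. For mesoderm-like cells they were 2 to 2, 2 to 4, 0.53 to 0.68 and -0.79 to -0.60 points. For E20 against E16 they were 1 to 2, 2 to 4, 0.19 to 0.43 and -0.79 to -0.51 points. Leaving out the 3 gonad cells rich in somatic transcripts and clustering by Ward linkage were chosen after seeing the data. With the 3 cells left out, TUBA3C against germ-cell-like embryo cells was -0.45 (0.45 with them) and TUBA3E -1.58. By medians TUBA3C was -1.36 there, and TUBA3E was 0.36 with ratios of means. Size factors moved the median of all genes by at most 0.068. No paired analysis was possible because each sample is a different single cell and the labels name no animal. Depth limits what can be read from genes with few reads.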
